A study of Homo sapiens with 33 samples.

Results

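The collagen chain genes are the protein-coding genes of the count table whose symbol is COL, a number, A and a number. This rule, which used no measured value, found 44 genes of 58735 in the table, of which 19951 were protein-coding. They were followed in 33 RNA-seq libraries of human H9 embryonic stem cells during a differentiation towards gonadal cells that lasted 14 days on plates coated with human collagen I. All libraries came from a single clone, H9-DDdCas9VP192-FOXL2 clone 24. It carries a dCas9VP192 activator that is switched on by doxycycline (DOX) and stabilised by trimethoprim (TMP), and guides that direct it to FOXL2, a forkhead transcription factor of the ovary. The 11 groups of 3 libraries were day 4, collected before induction, and days 6, 8, 10, 12 and 14 either without DOX and TMP (CTRL) or with both from day 4 onwards (IND). The 3 libraries of a group were technical replicates of 1 biological replicate, so that each p-value measures only the spread between these libraries. The effects of FOXL2 and those of DOX and TMP themselves cannot be told apart, since CTRL received neither drug, and the study noted that not every induced cell made FOXL2 protein. The count table covers RNA of the cells and not the coating protein.

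Collagens are the main structural proteins of the extracellular matrix and are built from alpha chains that wind around each other into a helix. The fibrillar chains form the rods of connective tissue, the type IV chains form the sheet of basement membranes, and the type VI chains form beaded filaments near the cell surface. Fibril-associated collagens (FACIT) decorate the surface of fibrils, and other classes span the plasma membrane (transmembrane) or release anti-angiogenic fragments from basement membrane zones (multiplexins). In the developing gonad, collagen-containing basement membranes enclose the testis cords and the ovarian follicles, and fibrillar collagens fill the stroma between them.

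RefSeq promoter windows of 300 bases (250 before and 50 after the transcript start, GRCh38.p14) were found for 32 of the 44 genes. The windows of 4 genes are shown to place them in the genome, and no result below uses them. COL16A1 was called lower in IND on all 5 days and COL12A1 higher on 4 days, while COL4A1 and COL4A2 are a divergent pair whose transcript starts lie 127 bases apart and whose windows share 226 bases. In the count table the spans of COL4A1 and COL4A2 overlap by 1422 bases, and the RefSeq start used for COL4A2 lies 1472 bases from the gene start given there. Capitals mark CCAAT and the GC box GGGCGG on either strand.
COL16A1 (chr1:31703968-31704267, minus strand): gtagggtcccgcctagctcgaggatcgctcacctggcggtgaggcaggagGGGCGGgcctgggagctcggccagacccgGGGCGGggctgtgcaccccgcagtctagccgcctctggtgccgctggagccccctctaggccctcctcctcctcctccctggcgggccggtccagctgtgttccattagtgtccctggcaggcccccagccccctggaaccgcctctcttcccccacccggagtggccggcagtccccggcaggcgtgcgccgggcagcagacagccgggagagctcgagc
COL12A1 (chr6:75206004-75206303, minus strand): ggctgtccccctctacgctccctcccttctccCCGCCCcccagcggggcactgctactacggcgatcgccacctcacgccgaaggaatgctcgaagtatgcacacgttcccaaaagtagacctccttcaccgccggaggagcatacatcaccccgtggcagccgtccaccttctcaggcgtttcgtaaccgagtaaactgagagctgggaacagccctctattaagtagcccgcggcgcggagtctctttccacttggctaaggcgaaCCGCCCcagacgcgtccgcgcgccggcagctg
COL4A1 (chr13:110307108-110307407, minus strand): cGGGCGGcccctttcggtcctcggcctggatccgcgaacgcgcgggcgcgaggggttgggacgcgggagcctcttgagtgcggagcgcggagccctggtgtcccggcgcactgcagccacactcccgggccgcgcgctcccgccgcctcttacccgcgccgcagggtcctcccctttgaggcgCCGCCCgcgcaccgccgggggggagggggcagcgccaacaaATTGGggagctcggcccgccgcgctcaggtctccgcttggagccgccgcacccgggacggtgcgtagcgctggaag
COL4A2 (chr13:110307034-110307333, plus strand): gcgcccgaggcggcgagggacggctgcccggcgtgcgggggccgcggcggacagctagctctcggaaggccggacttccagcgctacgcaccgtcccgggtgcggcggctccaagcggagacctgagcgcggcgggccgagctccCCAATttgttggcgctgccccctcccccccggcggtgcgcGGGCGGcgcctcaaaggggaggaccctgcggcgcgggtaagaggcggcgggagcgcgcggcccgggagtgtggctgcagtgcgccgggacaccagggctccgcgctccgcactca
The G and C content of these windows was 73.7% for COL16A1, 63.3% for COL12A1, 76.7% for COL4A1 and 77.7% for COL4A2. The letters GGGCGG stood on either strand in 18 of the 32 collagen windows (56.2%) and in 45% of all 35116 windows, and CCAAT stood in 10 of 32 (31.2%) against 34.6% of all windows. TATAAA was found in 6 of the 32 (18.8%) and in 11.5% of all windows. The window of COL6A6, which holds both GGGCGG and TATAAA, was set at a start 43157 bases from that of the gene in the count table. The forkhead core GTAAACA, searched on both strands, was in none of the 32 collagen windows and in 3.42% of all windows, which says only that these letters are not in these windows.

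The count totals of the 33 libraries ran from 23940837 to 51912815, with a median of 41420455. FOXL2, the targeted gene, stood at 50.6 to 197.9 FPKM (fragments per kilobase of exon, scaled to library size) in IND and at 0.00684 to 0.133 FPKM in all other libraries, as labelled. WT1, a marker of the coelomic epithelium and the early gonad, was listed at 0 to 0.00843 FPKM at day 4 and at 28.5 to 42.1 FPKM in CTRL of day 14. One library stood furthest apart. IND replicate 2 of day 10 had 23940837 counts, 19254 detected genes and 0.691% mitochondrial counts, while its sister libraries had 2.5% and 2.62% mitochondrial counts. At day 4, replicate 3 had 1.14% mitochondrial counts against 3.33% and 4.28% in the other libraries. IND replicate 1 of day 12 also differed from its sisters. Its 50 most abundant genes took 17.84% of the counts, the highest share of any library, against 14.6% and 15.48%. It had 26262 detected genes against 28196 and 27393.

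COL3A1, the chain of type III collagen in extensible connective tissue, was the most abundant collagen transcript. Its level per length was the highest of all 44 genes in 32 of the 33 libraries, with a mean of 1528 FPKM. COL1A1 and COL1A2, the chains of type I collagen, followed at means of 498.4 and 301.6 FPKM, and COL6A1 and COL6A2, chains of type VI collagen, at 196.1 and 164.0 FPKM. In the remaining library COL6A1 ranked above COL3A1.

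These 5 genes made up 60.7% to 86.9% (median 80.7%) of the summed FPKM of the family. In all 7 genes had a mean of at least 100 FPKM, the other 2 being COL2A1, the chain of cartilage collagen, and COL18A1. The mean of COL2A1, 119.4 FPKM, includes 793 FPKM in IND replicate 2 of day 10, the library that stands apart. Reads of COL18A1 are uncertain, because 16.4% of its exon length overlaps exons of SLC19A1 on the opposite strand and the libraries did not keep strand. Means of 11 genes lay from 10 to under 100 FPKM and those of 14 genes from 1 to under 10 FPKM. A further 12 genes were under 1 FPKM, among them COL10A1, the collagen of hypertrophic cartilage, which was too low to be tested in any comparison.

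**Figure D1:**
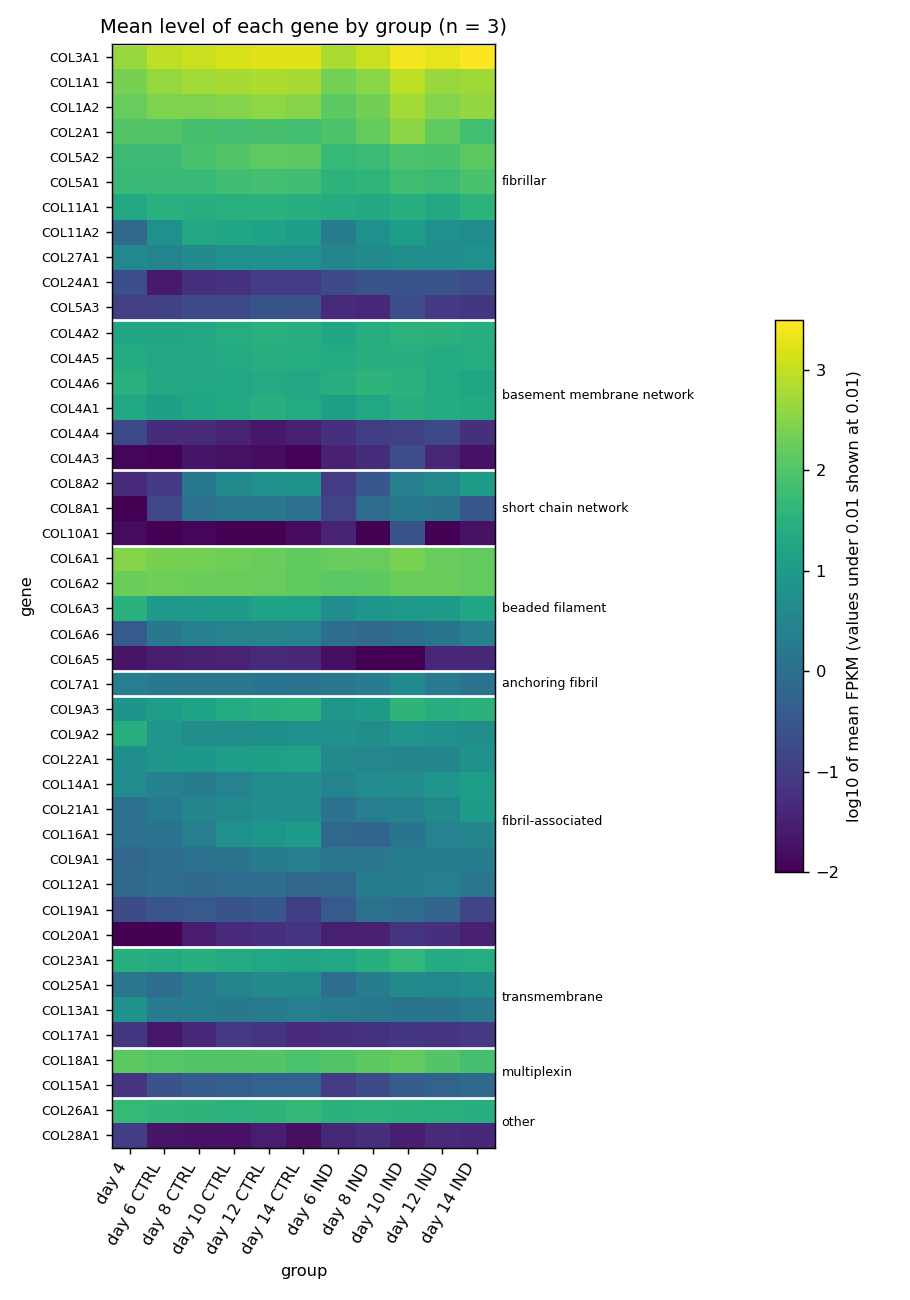
Mean FPKM of each collagen chain gene (rows, grouped by class) in each of the 11 groups (columns, n = 3 libraries) on a log10 colour scale, with means under 0.01 shown at 0.01. COL3A1 is the brightest row, with an overall mean of 1528 FPKM, and COL10A1 is among the darkest.

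Levels of chains that assemble into the same molecule were compared as ratios. The ratio of COL1A1 to COL1A2 in FPKM lay between 1.22 and 2.06 (median 1.62) over all libraries, that of COL4A1 to COL4A2 between 0.585 and 1.17, and that of COL4A5 to COL4A6, which are also transcribed head to head (346 bases between the gene spans), between 0.696 and 1.61. Type VI collagen in its main form is built from chains of COL6A1, COL6A2 and COL6A3. COL6A3 was well below its partners, with a COL6A1 to COL6A3 ratio of 7.26 to 48.4 (median 18.4). The highest ratio belonged to IND replicate 2 of day 10, the library that stands apart, and the highest in any other group was 35.7 (IND of day 6). For type IX collagen the ratio of COL9A3 to COL9A2 was 0.181 to 0.29 at day 4, 4.36 to 6.34 in CTRL of day 14 and 5.9 to 8.32 in IND of day 14.

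The summed level of the 44 genes rose along the CTRL course. It was 1739, 1393 and 2786 FPKM in the 3 libraries of day 4, and the CTRL means on days 6 to 14 were 2597 ± 332, 2961 ± 163, 3393 ± 115, 3844 ± 65.2 and 3584 ± 448 FPKM (SD, n = 3). As a share of all counts this was 1.36% ± 0.492 at day 4 and 2.9% ± 0.38 in CTRL of day 14. The highest value of day 4 belonged to replicate 3. Between day 4 and CTRL of day 14 the mean of COL3A1 alone went from 447 to 1700 FPKM. The summed mean of the fibrillar chains went from 1100 to 2940 FPKM, while that of the type VI chains fell from 515 to 309.

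In IND the summed level was below CTRL at day 6 and above it at day 14. At day 6 the IND libraries held 1808, 1856 and 1600 FPKM and the CTRL libraries 2887, 2234 and 2670, a log2 ratio of the means of -0.57 with no overlap. At day 14 the IND libraries held 4815, 4525 and 5087 FPKM against 3313, 3338 and 4101 in CTRL, a log2 ratio of 0.42, again with no overlap. The difference at day 14 lay mostly in COL3A1, which had means of 2900 FPKM in IND and 1700 in CTRL. The median log2 fold change of the collagen genes tested was 0.01 at that day. With 3 against 3 libraries an exact permutation test cannot go below p = 0.1, so no test is given.

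At days 8, 10 and 12 the groups overlapped. The log2 ratios on these days were -0.16, 0.67 and -0.01. At day 10 the IND libraries held 3495, 9495 and 3189 FPKM against 3431, 3484 and 3264 in CTRL. The ratio rested on replicate 2 and was -0.02 without it.

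**Figure D2:**
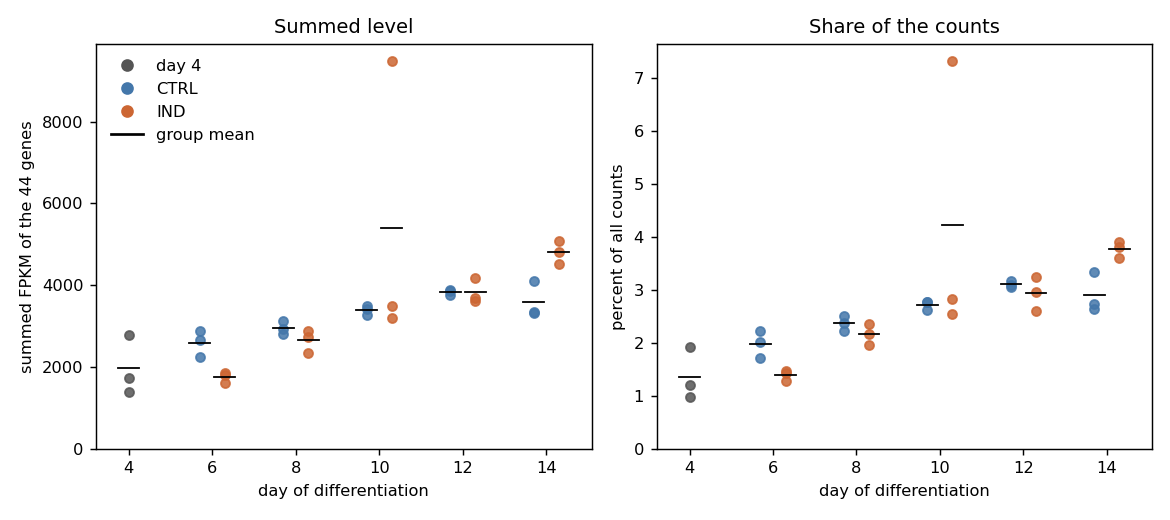
Summed FPKM of the 44 genes (left) and their percentage of all counts (right) by day of differentiation. Points are libraries, short lines are group means and both axes start at 0. IND lies below CTRL at day 6 (means 1754 and 2597 FPKM) and above it at day 14 (4809 and 3584). COL3A1 alone had means of 2900 and 1700 FPKM in IND and CTRL of day 14. At day 10, 1 IND library stands at 9495 FPKM.

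The CTRL course was compared with day 4 to follow differentiation without induction. In edgeR's quasi-likelihood test, with p-values adjusted by the Benjamini-Hochberg method over all genes tested (threshold 0.05), 6 collagen genes were higher and 10 lower at day 6 among 40 tested (of all genes, 11.0% were higher and 10.6% lower). At day 8 there were 12 higher and 8 lower among 41 (18.1% and 18.9% of all genes), and at day 10 there were 18 and 10 among 42 (23.1% and 22.0%). Of the 42 collagen genes tested at day 12, 21 were higher and 7 lower (24.4% and 23.8% of all genes), and at day 14 these counts were 19 and 12 (24.6% and 22.9%). The median log2 fold change of the collagen genes tested rose from -0.04 at day 6 to 0.73 at day 12 and was 0.47 at day 14, where the median of all genes was 0 at each of these days.

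In all, 34 of the 42 collagen genes tested on at least 1 day were called at least once (81.0%, beside 57.1% of all genes). Of the 40 tested on all 5 days, 6 were higher and 6 were lower each time (15.0% in each direction, beside 8.17% and 8.38% of all genes). Leaving out replicate 3 of day 4, the library with few mitochondrial counts, gave 12 higher and 10 lower genes at day 6 and 21 higher and 11 lower at day 14, where 30% and 51% of all genes were called. Without CTRL replicate 3 of day 6 the count of that day was 9, beside 12.5% of all genes. These comparisons share the libraries of day 4. With library totals in place of TMM scaling, the counts were 8 higher and 8 lower at day 6 and 21 higher and 8 lower at day 14. In these fits 22.9% and 46.6% of all genes were called.

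Among the short chain network collagens, COL8A1 and COL8A2 showed the largest rises of the family. COL8A1 had 0, 2 and 0 counts in the libraries of day 4 and stood at 1.54, 0.668 and 1.42 FPKM in CTRL of day 14, at least 110-fold higher when day 4 is set at 3 counts per library. COL8A2 had 3, 16 and 0 counts at day 4 (0.0234, 0.119 and 0 FPKM) and reached 5.11, 5.12 and 10.8 FPKM. Its log2 fold change was 7.21 ± 0.66 (SE), with an edgeR quasi-likelihood adjusted p of 2.68e-05. Both genes encode the chains of type VIII collagen, the network of Descemet's membrane and of vascular walls.

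Of the 11 fibrillar chains 8 were higher at day 12 than at day 4 and 1 was lower (24.4% and 23.8% of all genes). At day 6 these counts were 3 and 1 (11.0% and 10.6%), and at day 14 they were 7 and 2 (24.6% and 22.9%). COL11A2, a chain of the thin fibrils of cartilage, stood at 0.836, 0.555 and 1.03 FPKM at day 4, peaked at 25.8, 13.7 and 23.4 in CTRL of day 8 and was at 10.8, 12.4 and 10.9 at day 14. All later CTRL libraries were above all libraries of day 4. Its log2 fold change at day 14 was 3.82 ± 0.21 (SE; edgeR quasi-likelihood adjusted p = 2.08e-06). COL3A1 rose from 367, 208 and 767 FPKM to 1555, 1573 and 1979 (log2 fold change 1.94 ± 0.40, edgeR quasi-likelihood adjusted p = 0.00308) and COL1A1 from 200, 159 and 356.5 to 534, 545 and 715 FPKM (1.33 ± 0.28, 0.0035 by the same test). In both genes the groups did not overlap. COL1A2 stood at 130, 99.6 and 279 FPKM at day 4 and at 292, 287 and 392 FPKM at day 14, and its adjusted p in edgeR's quasi-likelihood test was 0.0431. That call was lost without replicate 1 (0.154) or replicate 2 of day 4 (0.0925) and without replicate 1 (0.0701), 2 (0.0713) or 3 (0.14) of CTRL day 14. COL11A1 had a log2 fold change of 0.65 (0.0277 in that test), which was lost without replicate 1 (0.115) or replicate 2 of day 4 (0.0723) and without CTRL replicate 3 of day 14 (0.11).

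FACIT chains moved both ways. COL9A2 fell from 28.5, 26.8 and 34.5 FPKM at day 4 to 7, 5.25 and 5.59 FPKM in CTRL of day 14, a log2 fold change of -2.33 ± 0.15 (SE; edgeR quasi-likelihood adjusted p = 3.65e-06), while its partner COL9A3 rose from 6.09, 4.84 and 10 to 30.6, 29.4 and 35.4 FPKM (2.19 ± 0.24, adjusted p in that test 7.11e-05). In neither gene did the groups overlap. COL16A1, a minor collagen that links other matrix fibres, rose from 1.23, 0.781 and 1.45 to 11, 8.06 and 12.3 FPKM (3.18 ± 0.24, adjusted p = 9.37e-06). The third type IX chain, COL9A1, was also higher, at 2.22, 2.81 and 1.86 FPKM against 0.477, 0.57 and 0.933 at day 4 (1.80 ± 0.27, adjusted p = 0.000544). COL22A1 (1.49) and COL21A1 (2.07) rose as well.

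Type VI chains and the transmembrane chain COL13A1 were among the falls. COL6A3 went from 29, 26.6 and 43.9 FPKM at day 4 to 9.56, 7.46 and 11.6 in CTRL of day 6 and 15.3, 11.5 and 18.2 at day 14 (log2 fold change -1.14 ± 0.22, edgeR quasi-likelihood adjusted p = 0.00211). COL6A1 went from 292, 231 and 378 to 141, 160 and 132 FPKM (-1.05 ± 0.18, adjusted p in that test 0.0012), whereas COL6A2 stood at 179, 147 and 217 against 146, 146 and 149 FPKM and did not pass the test (0.134). COL6A6 went the other way, from 0.333, 0.292 and 0.452 to 2.48, 2.17 and 3.54 FPKM (2.93 ± 0.25, adjusted p = 1.63e-05). COL13A1, found at the neuromuscular junction, fell from 5.41, 5.04 and 8.55 to 2.22, 2.64 and 2.16 FPKM (-1.43 ± 0.21, adjusted p = 0.000444).

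Of the basement membrane chains COL4A2 was higher, and COL4A4 and COL4A6 were lower. COL4A2 stood at 17.1, 16.1 and 18.9 FPKM at day 4 and at 28.4, 23.8 and 30.2 FPKM in CTRL of day 14, a log2 fold change of 0.67 ± 0.13 (SE; edgeR quasi-likelihood adjusted p = 0.00196). For its divergent partner COL4A1 the change was 0.28 ± 0.17 and did not pass the test (0.198). On other days COL4A1 was called lower at day 6 and higher at day 12. Its means were 18.8 FPKM at day 4, 13.2 in CTRL of day 6 and 27.9 in CTRL of day 12. COL4A4, a chain of the mature kidney and eye basement membranes, was lower on all 5 days, by -1.83 to -2.96 on the log2 scale, and below 0.3 FPKM in every library. COL4A6, a chain of smooth muscle basement membranes named after its values were seen, stood at 27.7, 36.8 and 27.9 FPKM at day 4 and at 18.5, 16.0 and 21.2 in CTRL of day 10. The groups did not overlap (-0.71 ± 0.14, edgeR quasi-likelihood adjusted p = 0.00364). It was also lower at days 6 (-0.57, adjusted p in that test 0.0193), 8 (-0.68, 0.0141) and 14 (-0.58, 0.00817), and at day 12 the change of -0.44 did not pass (0.0653). The call of COL4A6 at day 6 was lost without CTRL replicate 1 (0.0932) or 3 (0.0988), that of day 8 without CTRL replicate 1 (0.0716) or 3 (0.0671), and in 1 fit over all 33 libraries those of days 6, 8 and 14 were lost (0.171, 0.0747 and 0.109). With library totals those of days 6 (0.0612) and 14 (0.0603) were lost.

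The comparison of IND with CTRL asks what induction changed on a given day. In the same edgeR quasi-likelihood test, 2 collagen genes were higher and 7 lower in IND at day 6 among 41 tested (1.29% and 2.37% of all genes), and 6 were higher and 13 lower at day 8 among 41 (7.49% and 6.67%). At day 10 there were 1 higher and 3 lower among 42 (0.856% and 1.18%), at day 12 there were 4 higher and 7 lower among 43 (2.38% and 3.04%), and at day 14 there were 5 higher and 5 lower among 41 (3.21% and 5.22%). The collagen genes called lower were thus 17.1%, 31.7%, 7.14%, 16.3% and 12.2% of those tested on days 6 to 14. Over all collagen genes tested, the median log2 fold change was -0.26, 0, 0.36, -0.12 and 0.01 on these days. The medians of all genes lay between -0.01 and 0.02.

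Over the 5 days 26 of the 43 collagen genes tested were called at least once (60.5%, beside 19.4% of all genes). Of the 40 genes tested on every day, 6 lay below CTRL on all 5 days by their fold change (15.0%, beside 10.9% of all genes) and 5 lay above it (12.5%, beside 12.2%). The low count at day 10 rested on IND replicate 2. Without it 24 of 43 collagen genes were called, 9 higher and 15 lower, while 18.2% of all genes were called. Leaving out CTRL replicate 1 or 2 left none called at that day (0.0584% and 0.0532% of all genes), CTRL replicate 3 or IND replicate 3 left 1 (0.253% and 0.269%), and IND replicate 1 left 2 (0.352%). So few genes of the whole table were called in these fits that the counts say nothing of the collagens. At day 10, 15 collagen genes had an unadjusted p under 0.05 with all libraries and DESeq2 called 12 (7.96% of all genes). With library totals in place of TMM scaling the counts were 0 higher and 3 lower at day 10 and 1 higher and 7 lower at day 12. In these fits 1.71% and 5.08% of all genes were called. The count of day 6 was 5 without CTRL replicate 1 or 3 (2.03% and 2.29% of all genes) and 14 without IND replicate 1 (4.64%). That of day 8 was 12 on leaving out CTRL replicate 1 (6.92%) and 11 on leaving out CTRL replicate 3 (6.52%). At day 12 it was 4, 4 and 3 without CTRL replicates 1, 2 and 3 (2.48%, 2.41% and 2.03%) and 5 without IND replicate 2 (2.88%). The count over all genes moved in the same direction as that of the collagen genes in each of these fits. Leaving out IND replicate 1 of day 12 raised the share of all genes called at that day from 5.42% to 9.65%.

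**Figure D3:**
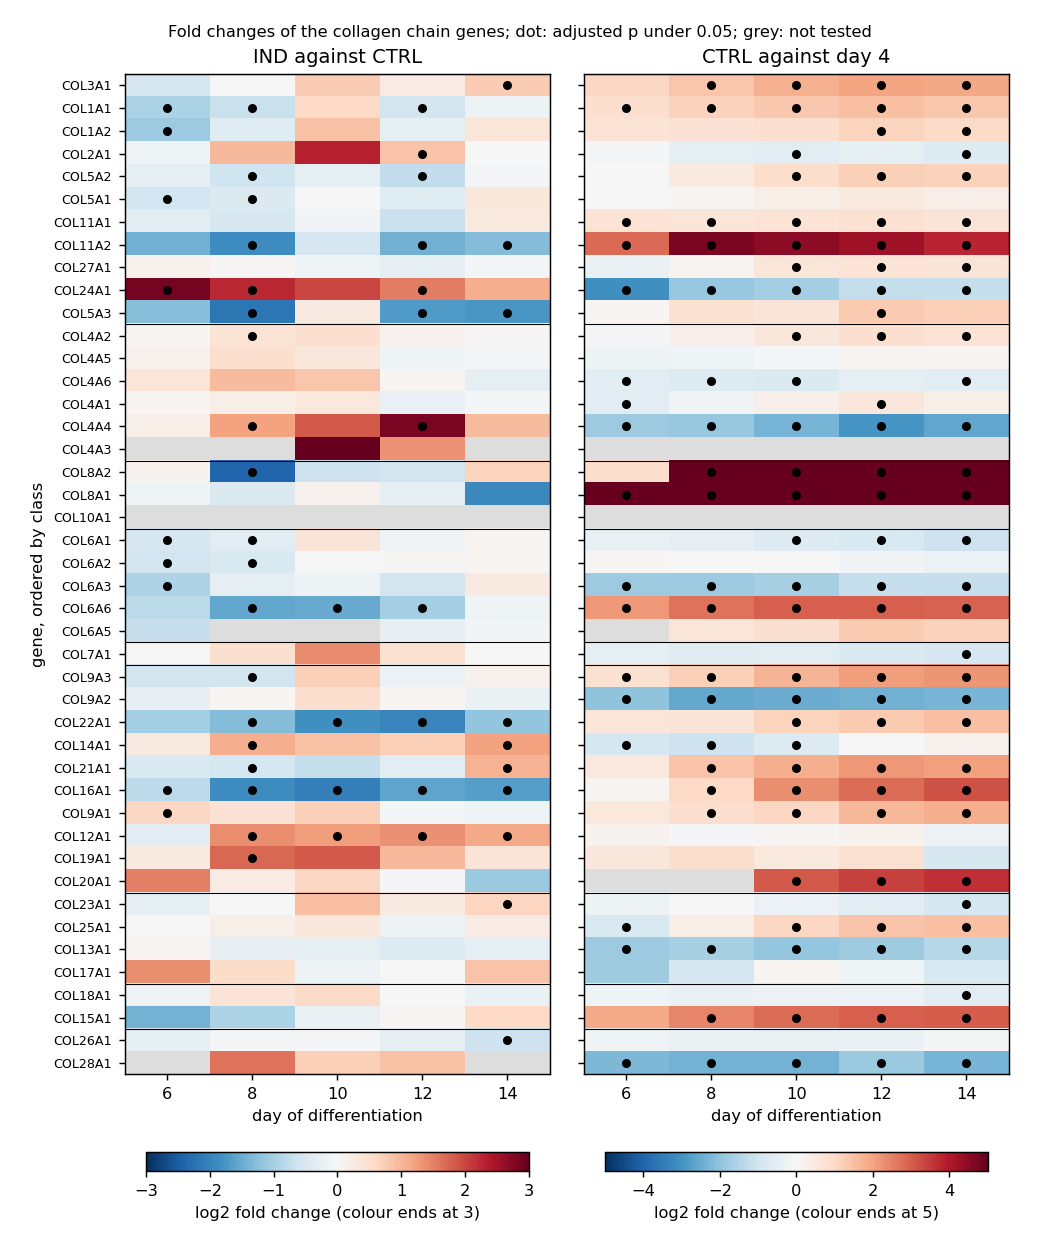
Log2 fold changes of each collagen chain gene (rows, grouped by class) on each day for IND against CTRL (left, colour ends at 3) and CTRL against day 4 (right, colour ends at 5). Dots mark an adjusted p under 0.05 in edgeR's quasi-likelihood test, and grey cells were not tested. COL16A1 carries a dot on all 5 days of the left panel, each time on the lower side.

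COL16A1 was the only one of the 44 genes called on all 5 days, as were 0.368% of all genes tested on every day. On days 8 to 14 its CTRL libraries stood at 2.12, 2.1 and 2.63 FPKM, then 6.06, 5.95 and 5.03, then 8.63, 7.09 and 8.5, and then 11, 8.06 and 12.3. The IND libraries of the same days stood at 0.701, 0.696 and 0.441 FPKM, 1.22, 1.53 and 1.34, 2.97, 2.4 and 2.66, and 3.28, 3.07 and 3.52. COL16A1 stood higher at day 14 than at day 8 in both courses, and every IND library was below every CTRL library of its day.

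The log2 fold changes of COL16A1 on days 6 to 14 were -0.78 ± 0.19, -1.89 ± 0.19, -2.06 ± 0.15, -1.59 ± 0.14 and -1.66 ± 0.14 (SE). The adjusted p in edgeR's quasi-likelihood test were 0.028, 0.000117, 0.00435, 0.000806 and 8.25e-05. At day 6 the call was lost without CTRL replicate 1 (0.167) or 3 (0.074) and without IND replicate 1 (0.0671) or 2 (0.103). At day 10 it was lost without CTRL replicate 1 (0.0576) or 2 (0.05), and at days 8, 12 and 14 it held without each library.

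COL22A1, a FACIT of tissue junctions such as that of muscle and tendon, stayed low in IND. Its CTRL libraries went from 9.81, 5.83 and 9.1 FPKM at day 6 to 13, 13.7 and 13.4 at day 12 and 17.2, 13.3 and 14.8 at day 14. In IND the values were 5.31, 4.11 and 2.55 FPKM at day 6, 3.18, 3.6 and 3.3 at day 12, and 6.3, 6.51 and 7.07 at day 14. No IND library reached the level of a CTRL library of its day. At day 6 the difference did not pass edgeR's quasi-likelihood test (adjusted p = 0.248). On days 8, 10, 12 and 14 the log2 fold changes were -1.30 ± 0.12, -1.84 ± 0.23, -1.99 ± 0.11 and -1.18 ± 0.10 (SE; edgeR quasi-likelihood adjusted p = 0.000107, 0.0165, 0.000101 and 1.28e-05). At day 10 the call was lost on leaving out any library but IND replicate 2, with adjusted p up to 0.126 (CTRL replicate 1), 0.113 (CTRL replicate 2), 0.0682 (CTRL replicate 3), 0.073 (IND replicate 1) and 0.0508 (IND replicate 3).

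COL6A6 and COL11A2 were each called lower in IND on 3 days. COL6A6 stood at 2.67, 1.79 and 2.56 FPKM in CTRL of day 8 and at 0.827, 0.745 and 0.804 in IND, a log2 fold change of -1.55 ± 0.15 (SE; edgeR quasi-likelihood adjusted p = 9.74e-05), and it was also lower at days 10 (-1.51, adjusted p in that test 0.0106) and 12 (-1.03, 0.011). By day 14 the groups overlapped, at 2.1, 1.9 and 3.42 FPKM in IND against 2.48, 2.17 and 3.54 in CTRL. The call of day 10 was lost without CTRL replicate 1 (0.11), 2 (0.0981) or 3 (0.0516) and without IND replicate 3 (0.0651), and that of day 12 without CTRL replicate 2 (0.0536). COL6A6 lies next to COL6A5 on chromosome 3, and COL6A5 was at most 0.0643 FPKM in any library.

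COL11A2 stood at 25.8, 13.7 and 23.4 FPKM in CTRL of day 8 and at 5.5, 4.62 and 7.05 in IND. At day 14 the values were 10.8, 12.4 and 10.9 FPKM in CTRL and 5.2, 3.91 and 4.6 in IND. The groups did not overlap on either day, and the log2 fold changes on days 8, 12 and 14 were -1.86 ± 0.29, -1.45 ± 0.25 and -1.31 ± 0.11 (SE; edgeR quasi-likelihood adjusted p = 0.0139, 0.0125 and 1.07e-05). The call of day 8 was lost without CTRL replicate 3 (0.0556) or IND replicate 1 (0.0828) or 2 (0.0521), and that of day 12 without CTRL replicate 1 (0.0527) or 3 (0.0543) or IND replicate 1 (0.0571). At day 10 COL11A2 did not pass the test (-0.51 ± 0.26, edgeR quasi-likelihood adjusted p = 0.413). The groups overlapped there, at 18.3, 16.6 and 17.9 FPKM in CTRL and 9.99, 17.8 and 9.24 in IND, and 17.8 belonged to the library that stands apart. For its partner COL11A1 no day passed the test. The change was largest at day 12, at -0.67 ± 0.18, where the CTRL libraries stood at 36.8, 32 and 29.4 FPKM and the IND libraries at 15.9, 20.2 and 25.4.

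At day 6 both type I chains and the 3 main type VI chains were lower in IND. COL1A1 stood at 526, 337 and 409.5 FPKM in CTRL of day 6 and at 218.5, 256 and 182 in IND, and COL1A2 at 320.5, 212 and 294 against 146, 131 and 106. All IND libraries were below all CTRL libraries. Their log2 fold changes were -0.94 ± 0.17 and -1.09 ± 0.16 (SE), with edgeR quasi-likelihood adjusted p of 0.0134 and 0.0027. The call of COL1A1 at day 6 was lost without CTRL replicate 3 (0.0784). At day 8 COL1A1 was lower by -0.66 ± 0.11 (adjusted p in that test 0.00329) and COL1A2 had a change of -0.37 ± 0.12 that did not pass (0.0665). In 1 fit over all 33 libraries the calls of COL1A1 at days 6 (0.221) and 8 (0.343) and of COL1A2 at day 6 (0.161) were lost.

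At day 14 neither type I chain passed edgeR's quasi-likelihood test (adjusted p = 0.513 for COL1A1 and 0.133 for COL1A2). COL1A1 stood at 534, 545 and 715 FPKM in CTRL and 536, 522 and 539 in IND, and COL1A2 at 292, 287 and 392 against 424, 374.5 and 442. At day 12 COL1A1 was lower once more (-0.55 ± 0.13, edgeR quasi-likelihood adjusted p = 0.0393), a call that was lost without CTRL replicate 1 (0.155), 2 (0.148) or 3 (0.192) and without IND replicate 2 (0.0753) or 3 (0.0823) and in 1 fit over all 33 libraries (0.399). At day 10, leaving out IND replicate 2 turned the log2 fold change of COL1A1 from 0.59 to -0.48 (0.00233 in that test).

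COL6A1 stood at 254, 221 and 223 FPKM in CTRL of day 6 and at 147, 178 and 162 in IND, and COL6A2 at 204, 189 and 178 against 119, 137 and 121. COL6A3 stood at 9.56, 7.46 and 11.6 FPKM against 4.96, 5 and 4.82. All 3 of these chains were lower in every IND library than in any CTRL library of that day. In this order the log2 fold changes were -0.50 ± 0.10, -0.58 ± 0.10 and -0.93 ± 0.13 (SE; edgeR quasi-likelihood adjusted p = 0.00987, 0.00202 and 0.000509). The call of COL6A3 was lost without CTRL replicate 1 (0.0598). At day 8 COL6A1 (-0.35) and COL6A2 (-0.46) were lower again. In 1 fit over all 33 libraries the calls of COL6A1 at days 6 (0.312) and 8 (0.414) and of COL6A2 at day 8 (0.0723) were lost, while those of COL6A2 (0.0387) and COL6A3 (0.00167) at day 6 held. In the comparisons by day, none of the 3 passed the test on days 12 and 14.

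COL3A1 had a lower mean in IND than in CTRL at day 6 and a higher mean at day 14. At day 6 it stood at 757, 668 and 504 FPKM in IND and 987, 753.5 and 1028 in CTRL, and at day 14 at 2899, 2648 and 3148 in IND and 1555, 1573 and 1979 in CTRL. At days 10, 12 and 14 every IND library was above every CTRL library of its day, and at days 6 and 8 the groups overlapped. The highest IND value of day 10, 4190 FPKM, belonged to the library that stands apart. From day 6 to day 14 the log2 fold changes were -0.50 ± 0.15, 0.00 ± 0.14, 0.76 ± 0.37, 0.24 ± 0.16 and 0.77 ± 0.13 (SE), and only the last passed edgeR's quasi-likelihood test (adjusted p = 0.00245). It held without each library, and in 1 fit over all 33 libraries the adjusted p was 0.238. The difference in response between days did not pass the edgeR quasi-likelihood test of the interaction of day and induction (adjusted p = 0.0685). The ratio of COL3A1 to COL1A1 was 2.77 to 2.91 in CTRL and 5.08 to 5.84 in IND at day 14.

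Among the genes that were higher in IND, COL12A1 was called on the most days. This FACIT sits on type I fibrils of dense connective tissue. Its CTRL libraries stood at 0.548, 0.808 and 0.996 FPKM at day 8 and at 0.743, 0.459 and 0.755 at day 14, and its IND libraries at 2.52, 2.28 and 1.3 at day 8 and 1.29, 1.68 and 1.33 at day 14. Every IND library was above every CTRL library of its day from day 8 to day 14.

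For COL12A1 the log2 fold changes were 1.39 ± 0.32, 1.26 ± 0.21, 1.36 ± 0.33 and 1.14 ± 0.19 (SE) on days 8, 10, 12 and 14, and the adjusted p in edgeR's quasi-likelihood test were 0.0367, 0.0408, 0.0484 and 0.00281. The call of day 14 held without each library. At day 8 it was lost without CTRL replicate 1 (0.0767) or 2 (0.0695) and without IND replicate 1 (0.0861) or 2 (0.117). At day 10 it was lost without CTRL replicate 1 (0.283), 2 (0.235) or 3 (0.0835) or IND replicate 1 (0.109) or 3 (0.155), and at day 12 without CTRL replicate 1 (0.138), 2 (0.109) or 3 (0.0989) or IND replicate 2 (0.125) or 3 (0.107). At day 6 the libraries overlapped, at 0.593, 0.75 and 0.817 FPKM in IND and 1.07, 0.727 and 1 in CTRL.

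COL14A1, a FACIT of skin and tendon closely related to COL12A1, stood at 2.28, 2.34 and 1.86 FPKM in CTRL of day 8 and 5.04, 4.83 and 3.74 in IND, and at 6.05, 5.43 and 4.12 against 10.4, 14.6 and 10.7 at day 14. The IND libraries were above the CTRL libraries on both days. The log2 fold changes were 1.08 ± 0.13 and 1.20 ± 0.17 (SE; edgeR quasi-likelihood adjusted p = 0.000401 and 0.00364), and both calls held without each library. At days 10 and 12 the changes of 0.87 and 0.71 did not pass the test (0.0841 and 0.0715).

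Other FACIT chains were higher on a single day. COL19A1, known from muscle and nerve development, stood at 1.52, 1.17 and 0.698 FPKM in IND of day 8 against 0.248, 0.551 and 0.229 in CTRL (log2 fold change 1.73 ± 0.42, edgeR quasi-likelihood adjusted p = 0.0376). The call was lost without CTRL replicate 1 (0.129) or 3 (0.123) or IND replicate 1 (0.0811) or 2 (0.114). COL9A1 stood at 1.35, 1.47 and 1.52 FPKM in IND of day 6 against 0.789, 0.941 and 1.1 in CTRL (0.63 ± 0.17, adjusted p in that test 0.0476), and that call was lost without CTRL replicate 1 (0.164), 2 (0.0957) or 3 (0.0541) or IND replicate 2 (0.201) or 3 (0.147). Its partner COL9A3 was lower at day 8, at 8.82, 12.6 and 11.1 FPKM against 14, 16.4 and 17.2 (-0.54 ± 0.13, adjusted p = 0.0224), which was lost without CTRL replicate 2 (0.0572) or 3 (0.0838) or IND replicate 3 (0.0596). In 1 fit over all 33 libraries the calls of COL19A1 (0.0994), COL9A1 (0.179) and COL9A3 (0.539) were lost. COL9A2 passed the test on no day.

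COL2A1 stood at 127, 190 and 113 FPKM in IND of day 12 and at 69.5, 82.8 and 86.2 in CTRL, a log2 fold change of 0.85 ± 0.20 (SE; edgeR quasi-likelihood adjusted p = 0.0453). The groups did not overlap, but the call was lost without CTRL replicate 1 (0.185), 2 (0.136) or 3 (0.123) or IND replicate 1 (0.117) or 2 (0.0774) and in 1 fit over all 33 libraries (0.289). At day 10 the IND libraries of COL2A1 held 110, 793 and 141 FPKM, of which 793 belonged to the library that stands apart.

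COL24A1, a fibrillar chain of developing bone, was named after its values were seen, since its low level kept it outside the rule for named genes. It stood at 0.205, 0.188 and 0.233 FPKM at day 4, at 0.0221, 0.0195 and 0.0326 in CTRL of day 6 and at 0.174, 0.192 and 0.18 in IND of day 6. IND thus stayed near the level of day 4 while CTRL fell. The log2 fold change of IND against CTRL was 2.87 ± 0.39 at day 6 and 2.26 ± 0.39 at day 8 (SE; edgeR quasi-likelihood adjusted p = 0.000348 and 0.00299), and both calls held without each library. COL24A1 was also higher at day 12 (1.54, adjusted p in that test 0.0234).

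The remaining called genes were COL5A1 (lower at days 6 and 8), COL5A2 (lower at days 8 and 12), COL5A3 (lower at days 8, 12 and 14, at no more than 0.422 FPKM in any library), COL26A1 (lower at day 14), COL23A1 (higher at day 14), COL4A2 (higher at day 8) and COL4A4 (higher at days 8 and 12, below 0.3 FPKM). These 7 were also named after their values were seen. COL26A1, a collagen first found in testis and ovary, stood at 33, 29.3 and 26.3 FPKM in IND of day 14 against 44.9, 49.2 and 41.7 in CTRL (-0.61 ± 0.10, edgeR quasi-likelihood adjusted p = 0.00145). That call held without each library. COL4A1 and COL4A2 shared the direction of change at day 8, at 0.17 ± 0.12 and 0.41 ± 0.09, but only COL4A2 passed the test (0.412 and 0.00974). The call of COL4A2 was lost without CTRL replicate 1 (0.0717) or 3 (0.066) or IND replicate 2 (0.0604) and in 1 fit over all 33 libraries (0.127).

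**Figure D4:**
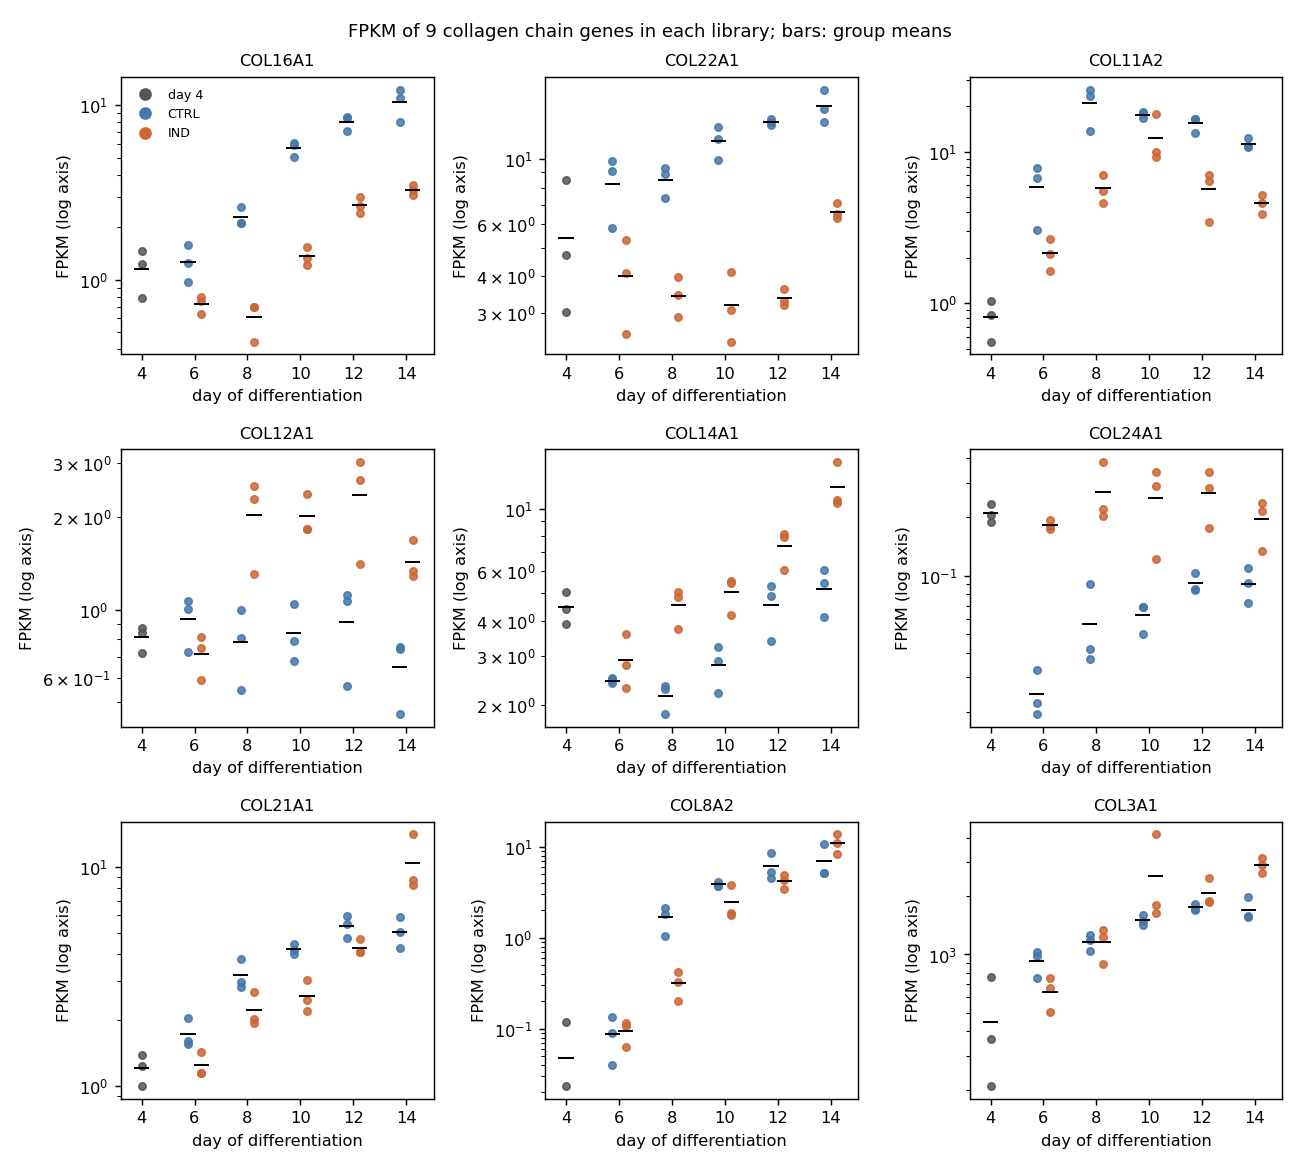
FPKM of 9 collagen chain genes in each library by day, on log axes of differing range, with group means as bars. The zero value of 1 day 4 library of COL8A2 cannot be drawn. COL16A1 and COL22A1 are lower in every IND library than in any CTRL library of the same day, COL12A1 is higher from day 8 on, and COL21A1 lies below CTRL up to day 12 and above it at day 14.

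Whether the response to induction differed between days was tested with 4 interaction terms in 1 edgeR quasi-likelihood fit over the 30 libraries of days 6 to 14. Of the 43 collagen genes tested, 6 passed at an adjusted p under 0.05, beside 2.38% of all genes. They were COL21A1, COL8A2, COL6A3, COL16A1, COL12A1 and COL6A6. Leaving out IND replicate 1, 2 or 3 of day 10 raised the count to 9, 11 and 13 (3.5%, 4.38% and 3.3% of all genes), while leaving out CTRL replicate 3 or IND replicate 2 of day 6 gave 3 (1.78% and 1.71%).

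COL21A1, a FACIT of vessel walls, showed the smallest p. Its CTRL libraries stood at 3.81, 2.98 and 2.85 FPKM at day 8 and at 5.02, 4.26 and 5.89 at day 14, and its IND libraries at 2.03, 1.95 and 2.67 and at 8.73, 8.27 and 14.1. IND was below CTRL in every library of days 6 to 12 but above it in every library of day 14. Its log2 fold changes were -0.46, -0.52, -0.71, -0.33 and 1.04, of which those of day 8 and day 14 passed edgeR's quasi-likelihood test (adjusted p = 0.0379 and 0.0438), and the interaction had an adjusted p of 0.000372. It held under all 37 alternatives, with adjusted p up to 0.00378. The call of day 14 was lost without CTRL replicate 1 (0.127), 2 (0.169) or 3 (0.0751), and that of day 8 without CTRL replicate 1 (0.171), 2 (0.0516) or 3 (0.0579) or IND replicate 1 (0.112) or 2 (0.142) and in 1 fit over all 33 libraries (0.0738).

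COL8A2 lagged in IND at day 8. It stood at 1.83, 1.06 and 2.13 FPKM in CTRL and 0.203, 0.331 and 0.418 in IND of that day, a log2 fold change of -2.38 ± 0.32 (SE; edgeR quasi-likelihood adjusted p = 0.00101). At day 14 the IND libraries held 11, 8.36 and 13.8 FPKM against 5.11, 5.12 and 10.8, and the change of 0.66 ± 0.37 did not pass the test (0.388). The interaction had an adjusted p of 0.00572 and held under all 37 alternatives. Its partner COL8A1 passed on no day. At day 14 COL8A1 stood at 0.139, 0.463 and 0.34 FPKM in IND and 1.54, 0.668 and 1.42 in CTRL (-1.93 ± 0.49, adjusted p in that test 0.0689).

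Genes of collagen processing were counted beside the shares of all genes given above for each day. Of 20 genes for chain folding and hydroxylation, all tested on each day, 3 were higher at day 8 (where 7.49% of all genes were higher) and 1 at day 14, and 1 was lower at days 12 and 14. No gene of this list passed in the same direction on 3 days. Of 13 genes for propeptide cleavage and cross-linking, 1, 3, 1, 2 and 2 were lower on days 6, 8, 10, 12 and 14, and 1 gene each was higher at days 8 and 14. Of the collagen receptors tested (7 or 8 of 10 a day), 2 were higher at day 8, and 2 and 1 were lower at days 12 and 14.

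ADAMTS2, the protease that removes the amino-terminal propeptide of fibrillar procollagens, had a fold change below 0 in IND on all 5 days. The IND means on days 6 to 14 were 1.60 ± 0.05, 2.22 ± 0.23, 2.45 ± 0.09, 2.82 ± 0.15 and 3.75 ± 0.48 FPKM, and the CTRL means were 2.32 ± 0.28, 3.99 ± 0.20, 4.40 ± 0.68, 5.21 ± 0.34 and 5.24 ± 0.40 FPKM (SD, n = 3). The log2 fold changes were -0.51, -0.83, -0.84, -0.88 and -0.48 on days 6 to 14, with edgeR quasi-likelihood adjusted p of 0.0444, 0.00026, 0.0487, 0.00467 and 0.0141. The calls of ADAMTS2 at days 8 and 12 held without each library. That of day 6 was lost whichever library was left out (0.0585 to 0.19), that of day 10 without any library but IND replicate 2 (0.0835 to 0.285), and that of day 14 without CTRL replicate 1 (0.0753) or IND replicate 3 (0.0676).

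Markers of other cell types were counted in the same comparisons. On days 6 to 14, 1.29%, 7.49%, 0.856%, 2.38% and 3.21% of all genes were higher in IND. On these days 2.37%, 6.67%, 1.18%, 3.04% and 5.22% of all genes were lower. The same shares stand beside the lists of the next paragraph. Of 6 stromal fibroblast markers, 2, 4, 2 and 2 were lower in IND on days 6, 8, 10 and 12, and at day 14 none was lower and POSTN was higher. Their summed level was 250 to 309 FPKM in CTRL and 121 to 169 in IND at day 8, and 210 to 348 and 258 to 371 at day 14. Of 6 endothelial markers 5 were higher at day 8, 2 at day 10 and 3 at day 12, and 1 was lower at day 6, and their sum was 21.6 to 23.7 FPKM in CTRL and 27.9 to 30.6 in IND at day 8.

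Neuronal markers were lower in IND for 3, 2, 3 and 5 of 6 genes on days 8, 10, 12 and 14, with sums of 100 to 162 FPKM in CTRL and 46.1 to 60.1 in IND at day 14, and neural crest and glial markers for 3, 3, 2 and 4 of 6 on days 6, 8, 12 and 14. Of 6 muscle and heart markers 2, 3, 2, 1 and 1 were lower on the 5 days, and of 6 coelomic markers 2, 4, 3, 3 and 3 were lower, with 1 higher at day 6. Of 6 cartilage and notochord markers 1, 2, 0, 1 and 1 were lower on days 6 to 14, and HAPLN1 (day 8) and MATN3 (day 14) were higher. Of the pluripotency markers tested (3 or 4 of 6) none was called, and their sum in IND of day 10 ran from 82.5 to 473 FPKM. No defining marker of the stromal, endothelial, neuronal or cartilage lists was at or under 3 counts in every library of a group. In the other lists S100B, MYOG, WT1 and NANOG were at or under 3 counts in every library of day 4. NANOG was so in both groups of day 14, and PRDM14 in both groups of days 8 to 14 and in IND of day 6. In bulk RNA, a change in the share of cells and a change in RNA per cell cannot be told apart, and the part of these cell types in the collagen values was not tested.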

How the data were processed

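Total RNA of 33 samples was sequenced as poly-A-selected, non-directional paired-end libraries. Per the labels and methods, the authors trimmed reads with fastp 0.23.2, aligned them with HISAT2 2.0.5 to GRCh38/hg38 and counted reads per gene with featureCounts 1.5.0-p3. The deposited counts are raw read counts per gene, and the authors also deposited FPKM values, which served here only for an alternative test. The members and gene lists were chosen with earlier results of these data known.

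Each comparison was fitted on the counts of its 6 libraries with edgeR 4.0.16 (R 4.3.3; TMM scaling, filterByExpr, robust quasi-likelihood test), with Benjamini-Hochberg adjustment over all genes tested and a threshold of 0.05. The difference in response between days was tested with 4 interaction terms over 30 libraries. The FPKM values in the text were computed from the counts, the gene lengths of the table and TMM library sizes over all 33 libraries. Alternatives were DESeq2 1.42.0, its size factors (RLE), library totals only, no filter on low counts, limma-trend 3.58.1 on log2(deposited FPKM + 1), 1 fit over all libraries, a replicate block and leaving out each library. Scripts were tested on simulated data.

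Genes given by library were up to 3 per direction and comparison (IND against CTRL on each day, and CTRL of day 14 against day 4) with the largest log2 fold change among those past the threshold whose average log2 CPM reached 1, the 5 with the highest mean FPKM, and partner chains. Totals of 23940837 to 51912815 counts set the precision. The p-values cover the spread between technical replicates of 1 differentiation. Protein sequences were planned but not used here.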

Additional observations from a re-analysis of the deposited data

Results flagged for a closer look

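For 6 collagen chain genes the response to induction differed between days by the interaction test over days 6 to 14 (edgeR quasi-likelihood test, Benjamini-Hochberg adjusted p). COL21A1 (0.000372) was below CTRL on days 6 to 12 and above it at day 14, and COL8A2 (0.00572) had its largest difference at day 8. For COL6A3 (0.0149) the log2 fold change was -0.93 at day 6 and 0.28 at day 14. COL16A1 (0.0203) was lower on every day, by -0.78 at day 6 and by -2.06 at day 10. For COL12A1 (0.0388) the change was -0.35 at day 6 and 1.39 at day 8, and for COL6A6 (0.0407) it was -1.55 at day 8 and -0.13 at day 14. COL21A1, COL8A2 and COL6A3 stayed under the threshold in all 37 alternatives, COL16A1 in 33, COL12A1 in 18 and COL6A6 in 17, with adjusted p up to 0.0814, 0.155 and 0.175 for the last 3.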

How the results depend on the processing

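Of 56 called values of named genes, 55 kept their direction and call with DESeq2, with RLE size factors and without the filter on low counts, 53 with library totals only, 49 with limma-trend and 42 in 1 fit over all 33 libraries. With one library left out, 258 of 336 held and 78 lost the call. At day 10, leaving out IND replicate 2 reversed COL1A1 (-0.48, edgeR quasi-likelihood adjusted p = 0.00233), COL6A2 (-0.27, 0.0312) and COL9A3 (-0.48, 0.000957), whose values over all libraries left out ran up to 0.92, 0.16 and 1.07. None of these genes was called at day 10 with all libraries (0.634, 0.971 and 0.598 in that test), so no called value was reversed. The number of collagen genes called in IND was 14 at day 6 with DESeq2 (5.5% of all genes) and 14 without the filter (3.5%), 11 at day 8 in the fit over all libraries (7.07%), 12 with DESeq2 (7.96%) and 16 in the fit over all libraries (14.7%) at day 10, 6 at day 12 with limma-trend (3.72%) and 17 at day 14 without the filter (6.92%). The interaction count was 27 without the filter (5.52% of all genes). The cause of these changes was not tested.

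Leaving out each library in turn gave 5 to 14 called genes for IND at day 6, 11 to 28 at day 8, 0 to 24 at day 10, 3 to 12 at day 12 and 8 to 15 at day 14. Of all genes, 1.78% to 4.64% were called at day 6, 6.52% to 23.6% at day 8 and 0.0532% to 18.2% at day 10. At day 12 the share was 2.03% to 9.65%, and at day 14 it was 4.64% to 9.99%. For CTRL against day 4 the ranges were 9 to 22, 14 to 27, 23 to 31, 23 to 30 and 24 to 32, and for the interaction 3 to 13. The shares of all genes for CTRL were 12.1% to 30%, 23.4% to 44.5%, 32.3% to 52%, 36.4% to 52.9% and 35.2% to 51%. That of the interaction was 1.47% to 4.38%. The log2 ratio of the summed level ranged from -0.66 to -0.48 at day 6, -0.22 to -0.08 at day 8, -0.02 to 0.94 at day 10, -0.07 to 0.03 at day 12 and 0.37 to 0.53 at day 14. Library totals moved the median of all genes by at most 0.195 (log2).

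For samples with the same replicate number, correlations of their deviations ran from -0.229 to 0.175 between IND and CTRL (3 of 15 over 0.1). Between CTRL and day 4 they ran from -0.205 to 0.32 (4 of 15). Since each group has only 3 libraries, these values cannot settle whether the numbers pair the samples. With a replicate block the counts were 13, 19, 0, 11 and 12 for IND on days 6 to 14 (4.82%, 15.3%, 0.0755%, 6.84% and 10.2% of all genes), 21, 23, 28, 31 and 30 for CTRL (26.2%, 35.5%, 38.1%, 45.9% and 41.4%), and 5 for the interaction (2.52%). At day 10 only 15 of 19858 genes were called with the block, so its 0 says nothing of the collagens. In the edgeR fit without the block 15 collagen genes of that day had an unadjusted p under 0.05.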
